A study of Homo sapiens with 40 samples.

Results

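Replication-dependent histone genes encode the histones that package newly made DNA. They were taken as the protein-coding genes of the total RNA table whose symbols are H1-1 to H1-6 or a numbered H2AC, H2BC, H3C or H4C name. The rule found 64 genes among the 57939 genes of that table. Of these, 6 encode the linker histone H1, 16 encode H2A, 17 encode H2B, 11 encode H3 and 14 encode H4. All 64 were found in the polyA RNA table by gene identifier, where they carry older symbols such as HIST1H1C for H1-2. In GENCODE 29 (GRCh38), 53 of them lie on chromosome 6 between bases 25726132 and 27893843, and 11 lie on chromosome 1 between bases 149782689 and 149887916.

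Histones H2A, H2B, H3 and H4 form the core of the nucleosome, and linker histone H1 binds the DNA that enters and leaves it. Replication-dependent histone genes are transcribed chiefly in S phase, and most of their mRNAs carry a stem-loop at the 3′ end and no polyA tail. The stem-loop binding protein SLBP attaches to that structure and serves the processing, export, translation and decay of the mRNA. Replication-independent histones such as H3-3A and H2AZ1 are made throughout the cell cycle, from mRNAs with polyA tails.

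The cells were an established human embryonic stem cell line (hESC) named H1, a name unrelated to the linker histone. Undifferentiated cells (day 0) were compared with cells 3 and 5 days into mesoderm differentiation with BMP4 followed by bFGF. On each day RNA was taken from the cytoplasmic extract (CE), the membrane extract (ME), the soluble nuclear extract (SNE), the chromatin-bound nuclear extract released with micrococcal nuclease (CBNE), the pellet extract (PE) and the INPUT. Total RNA gave 36 libraries, 2 for each of 18 combinations of fraction and day, and polyA RNA gave 2 libraries of nucleus and 2 of cytoplasm from undifferentiated cells. No label says whether the 2 libraries of a group came from separate cultures, so p-values measure only the spread between these libraries, which may be technical. In bulk RNA, a change in the share of cells in S phase and a change in RNA per cell cannot be told apart.

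Values are TPM, the share of each library's transcripts taken by a gene after scaling by length. The number of reads behind them is unknown. The 64 genes had 4 to 10 members listed at 0 in each CE, ME, SNE or INPUT library and 8 to 11 in each PE library. Between 20 and 35 members were listed at 0 in each CBNE library. On day 5 the numbering of the libraries breaks between the first and second ME library, so for SNE, CBNE and PE the later numbers and day 5 cannot be told apart. The 8 pluripotency markers summed to 1666 to 1698 TPM in day 5 INPUT, against 3969 to 3973 TPM in day 0 INPUT, with SOX2 listed at 0 in every library. The 8 mesoderm markers summed to 1353 to 1442 TPM in day 5 INPUT, against 108 to 111 TPM in day 0 INPUT. The 3 endoderm markers summed to 917 to 946 TPM in day 5 INPUT, against 3.64 to 4.86 TPM in day 0 INPUT. PAX6 and SOX1, markers of neuroectoderm, summed to at most 1.66 TPM in day 5 INPUT, against at most 2.78 TPM in day 0 INPUT. In day 3 INPUT the mesoderm markers summed to 104 to 116 TPM, on both sides of the day 0 values. On that day the pluripotency markers summed to 2336 to 2358 TPM, the endoderm markers to 32.8 to 36.7 TPM and the neuroectoderm markers to at most 0.786 TPM.

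The stem-loop was located in the annotated transcripts because it is the feature that sets these mRNAs apart from mRNAs with a polyA tail. A stem-loop of 16 bases was found in 28 of the 64 genes, 23 to 68 bases after the stop codon (median 36.5). None was found in the H1 genes. Of the 36 genes without one, 32 are annotated with fewer than 40 bases after the stop codon, so the annotation ends before or near the place where it would lie. The lines below show 1 gene for each of the 6 forms found, and H2AC6 for the length of its annotated transcript. They are GENCODE 29 transcripts on GRCh38, 5′ to 3′, with the stem-loop in capitals.
H2AC8: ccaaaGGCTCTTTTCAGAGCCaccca
H2AC6: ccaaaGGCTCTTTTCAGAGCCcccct
H2AC11: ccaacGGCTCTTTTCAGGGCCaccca
H3C8: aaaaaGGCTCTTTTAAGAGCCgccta
H3C6: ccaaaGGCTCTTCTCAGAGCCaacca
H4C2: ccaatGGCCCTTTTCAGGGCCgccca
H4C9: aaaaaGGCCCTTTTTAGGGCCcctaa
The form shown for H2AC8 and H2AC6 was found in 15 genes, 5 of H2A, 7 of H2B and 3 of H3. The form of H3C8 was found in 4 genes, 3 of H2B and 1 of H3. The forms of H2AC11 and H3C6 were found in 1 gene each. The stem-loops of H4C2 and H4C9 were found only in H4 genes, in 4 and 3 of them among the 28. The H2AC8 window lies at chr6:26217412-26217437 on the plus strand and the H4C2 window at chr6:26026896-26026921 on the minus strand. The H2AC8 transcript runs on for 51 bases after the stem-loop and that of H2AC6, at chr6:26124664-26124689 on the plus strand, for 1128 bases.

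Promoters were compared between subfamilies because histone genes of 1 subfamily are known to share promoter elements. RefSeq (GRCh38.p14) listed a promoter for 59 of the 64 genes, and 4 motifs were searched in it on both strands. A histone gene was counted where any of its listed starts had the motif. The shares of all promoters count each listed promoter singly, so the 2 rates are not fully alike. The octamer ATTTGCAT, known as a binding site of POU2F1, was in 14 of 17 H2B and 11 of 15 H2A promoters. It was in 1 of 9 H3 promoters, in 0 of 6 H1 promoters and in 0 of 12 H4 promoters, against 1.63% of all 35116 promoters. The H1 box AAACACA was in 6 of 6 H1 promoters and in none of the other histone promoters searched, against 4.82% of all promoters. CCAAT was in 50 of 59, but in 3 of 12 H4 promoters, against 32.0% of all promoters. TATAAA was in 41 of 59, against 10.7% of all promoters. The stretches below end just before the start site and show H1 and H2B genes of low (H1-1, H2BC3) and high (H1-3, H2BC12) INPUT level on day 5, with these motifs on either strand in capitals.
H1-1: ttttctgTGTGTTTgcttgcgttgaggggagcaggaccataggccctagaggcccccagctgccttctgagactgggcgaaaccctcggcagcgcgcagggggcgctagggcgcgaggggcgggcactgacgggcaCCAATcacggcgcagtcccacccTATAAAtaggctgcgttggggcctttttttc
H1-3: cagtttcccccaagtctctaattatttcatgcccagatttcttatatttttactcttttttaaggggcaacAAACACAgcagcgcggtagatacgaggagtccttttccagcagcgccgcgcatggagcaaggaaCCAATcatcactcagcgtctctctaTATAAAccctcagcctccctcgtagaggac
H2BC3: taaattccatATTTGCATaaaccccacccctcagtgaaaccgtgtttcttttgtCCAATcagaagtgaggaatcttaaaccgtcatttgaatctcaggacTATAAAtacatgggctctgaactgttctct
H2BC12: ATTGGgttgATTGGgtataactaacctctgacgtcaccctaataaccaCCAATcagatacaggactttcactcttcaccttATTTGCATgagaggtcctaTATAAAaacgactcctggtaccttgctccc
The H1-1 stretch lies at chr6:26017788-26017977, that of H1-3 at chr6:26234988-26235177, that of H2BC3 at chr6:26043714-26043843 and that of H2BC12 at chr6:27146856-27146985, all on the minus strand. The H1 box of H1-1 begins 183 bases before the start, on the opposite strand, and that of H1-3 begins 119 bases before it. The octamer begins 120 bases before the start in H2BC3 and 49 bases before it in H2BC12. A match describes letters in this window and is no evidence that a factor binds.

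Histone RNA made up more of the cytoplasmic extract than of any other fraction on each day. The 64 genes held 12.6% ± 0.359 of all TPM in CE on day 0, 14.5% ± 1.11 on day 3 and 13.3% ± 0.406 on day 5 (SD, n = 2 each). In INPUT they held 9.38% ± 0.159, 8.16% ± 0.408 and 8.60% ± 0.495 on the same days. The other extracts were lower, with 1.80% to 2.66% in ME, 1.27% to 1.64% in SNE, 1.62% to 2.18% in PE and 0.333% to 0.911% in CBNE over the 3 days. Each of the 5 subfamilies was abundant in CE. On day 0, CE held 29804 ± 769 TPM of H4, 28664 ± 816 of H2A, 25472 ± 256 of H2B, 25211 ± 1185 of H1 and 16202 ± 522 of H3. The ratio of summed TPM in CE to that in ME on day 0 lay between 6.49 for H1 and 7.91 for H3.

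**Figure D1:**
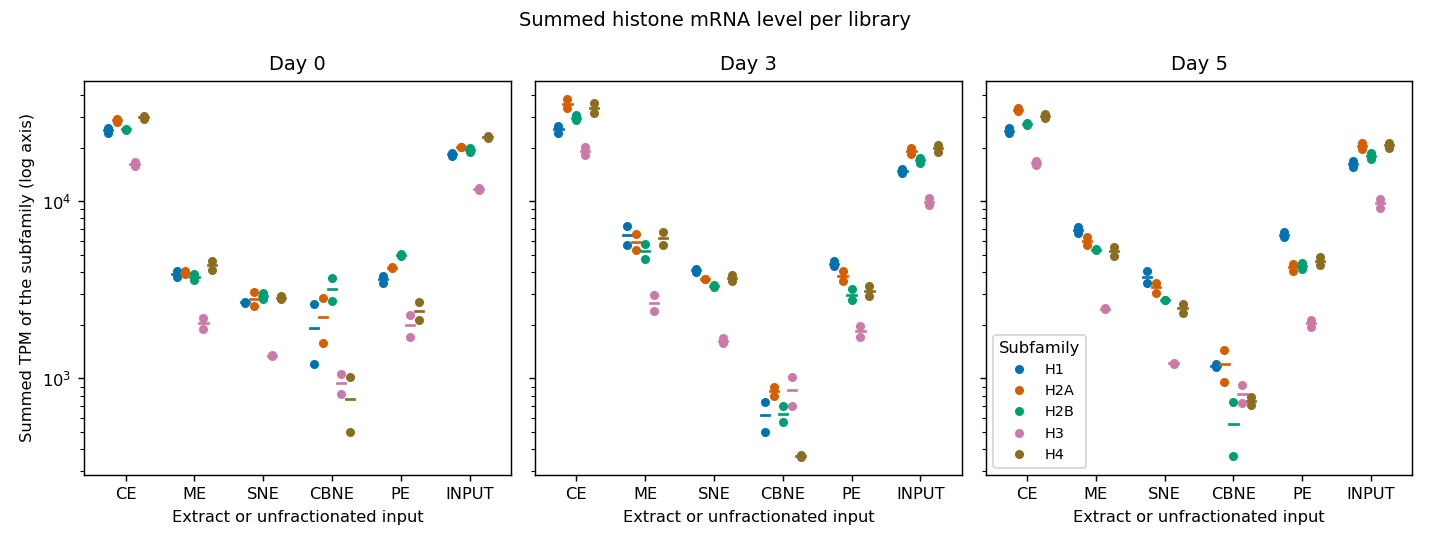
Summed TPM of the H1, H2A, H2B, H3 and H4 genes in each fraction and day, on a log axis, with 1 point per library and a short line at the mean of the 2 libraries. CE and INPUT sit far above ME, SNE, CBNE and PE for each subfamily, and H3 is the lowest of the 5 in CE.

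Linker histone RNA made up a larger share of the histone RNA on later days in the membrane, soluble nuclear and pellet extracts. H1 genes made up 21.6% ± 0.0249 of histone TPM in ME on day 0, 24.4% ± 0.731 on day 3 and 26.5% ± 0.187 on day 5. In SNE their share was 21.3% ± 0.236, 24.9% ± 0.914 and 27.7% ± 1.26 on the same days. In PE it was 20.998% ± 1.34, 27.5% ± 0.894 and 29.9% ± 1.88. In CE the share was 20.1% ± 0.377, 17.8% ± 0.0970 and 19.001% ± 0.142, and in INPUT it was 19.8% ± 0.189, 18.3% ± 0.277 and 19.1% ± 0.125. The shares are given as a description, with no test, and that of CBNE, where the most members were listed at 0, is not given. H1-5, an H1 variant of dividing cells, had 1089 and 1169 TPM in ME on day 0, 2350 and 2073 on day 3 and 2083 and 1913 on day 5. In SNE it had 766 and 761 TPM, 1477 and 1539 TPM, and 1296 and 1125 TPM on the same days. Day 0 was the lowest day for H1-5 in both extracts, with no overlap with the later days. Of all genes, 26.4% on day 3 and 33.6% on day 5 lay above day 0 in this way in ME. In SNE 22.7% and 34.1% did. Mitochondrial-encoded RNA took 60.5%, 51.2% and 47.4% of TPM in ME on days 0, 3 and 5, and its part in the H1-5 values was not tested. H1-3 in SNE had 394 and 402 TPM on day 0, 442 and 426 on day 3 and 460 and 330 on day 5, and its day 5 libraries lay on both sides of those of day 0. H2BC12, the most abundant H2B gene, had 2125 and 1032 TPM in CBNE on day 0, 265 and 254 on day 3 and 162 and 136 on day 5.

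**Figure D2:**
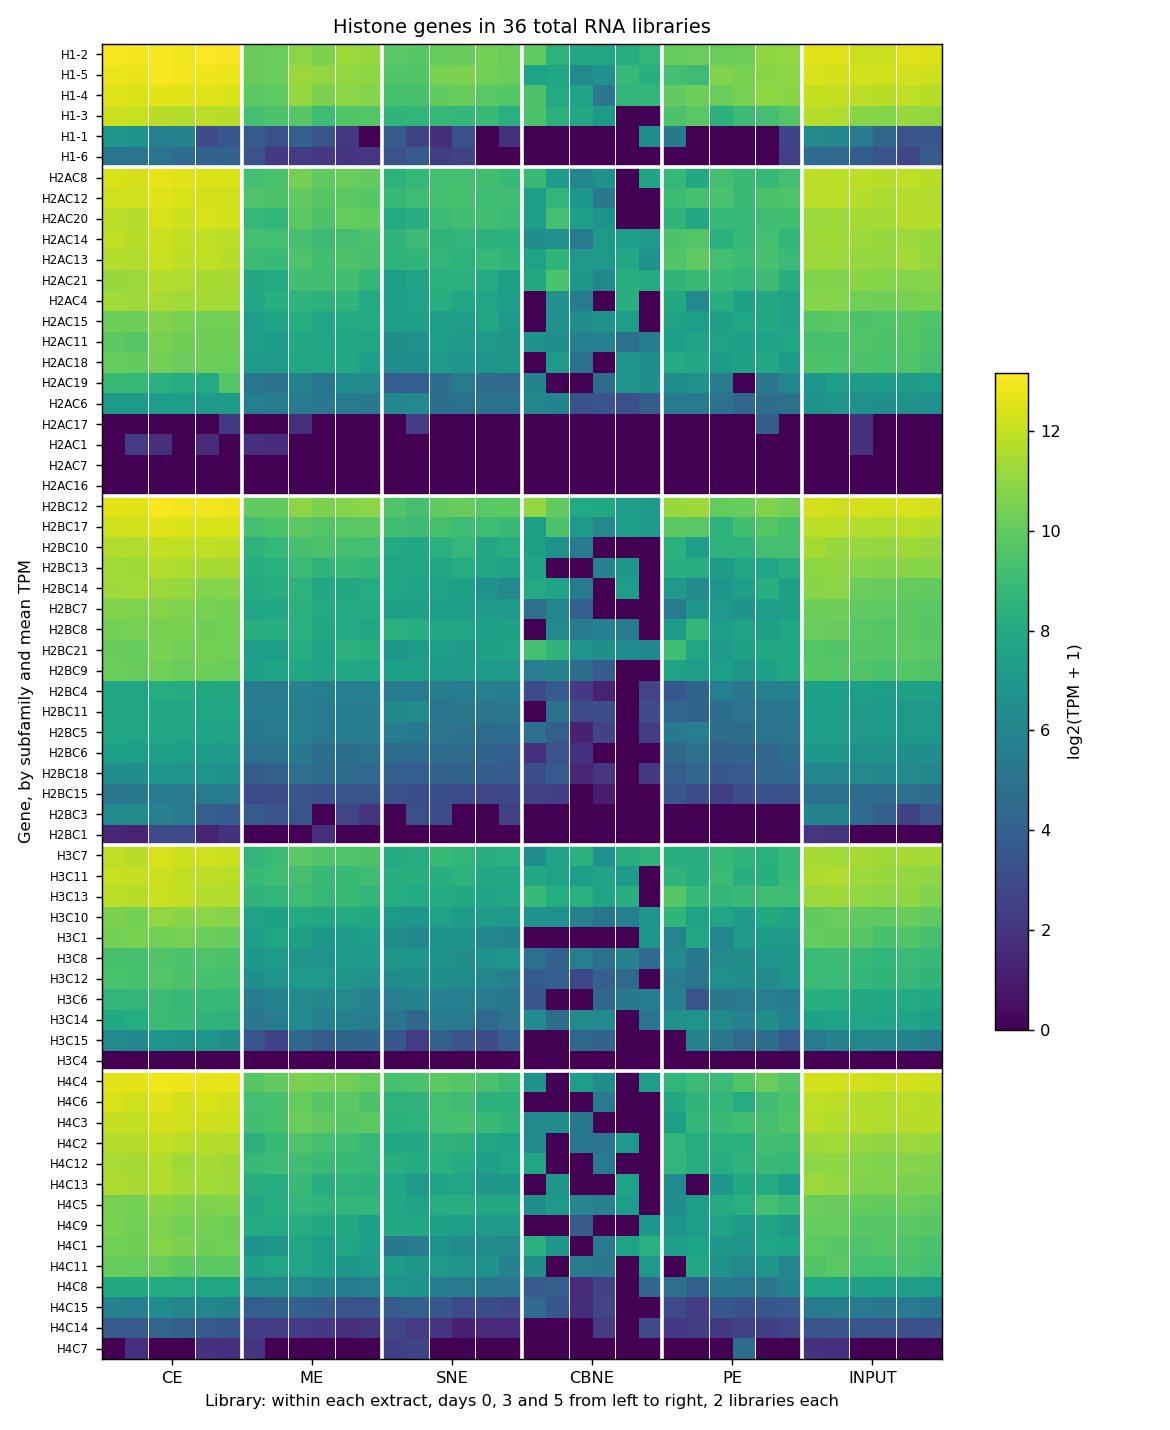
Heat map of the level of each of the 64 genes (rows, by subfamily) in each of the 36 total RNA libraries (columns), coloured by log2(TPM + 1). CBNE holds the most genes listed at 0, 20 to 35 per library.

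The members were tested one by one for their level in CE over the mean of ME, SNE, CBNE and PE, with limma across the 24735 genes that reached 1 TPM in 2 libraries or more. A call needed an adjusted p under 0.05 and a log2 fold change of at least 1, on the log2(TPM + 1) scale. Of the 64 genes, 61 passed the filter. On day 0, 58 of 61 were called higher in CE, where 18.8% of all genes were, and 0 were called lower, where 8.55% were (limma; 58 had an unadjusted p under 0.05). On day 3 the count was 57 of 61, where 10.4% of all genes were called higher, and on day 5 it was 58 of 61, where 12.5% were. On days 3 and 5 again 0 were called lower, where 19.7% and 17.6% of all genes were, and 58 members on each day had an unadjusted p under 0.05. The median log2 fold change of the 61 members was 3.28, 3.60 and 3.46 on days 0, 3 and 5, and over all genes it was 0.00, -0.28 and -0.22.

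Genes of each subfamily were called. On day 0, 6 of 6 H1, 12 of 14 H2A, 17 of 17 H2B, 10 of 10 H3 and 13 of 14 H4 genes were called higher, with medians of 3.33, 3.27, 3.15, 3.73 and 4.00. The mean of the other extracts includes CBNE, where the most members were listed at 0. Over ME alone, the H4 median on day 0 was the lowest of the subfamilies. The order of the subfamilies was not tested. Among the linker histones, H1-2, a major variant of dividing cells, had 8367 and 7757 TPM in the 2 CE libraries of day 0, against 1086 and 1197 in ME, 872 and 860 in SNE, 998 and 368 in CBNE and 1069 and 1152 in PE. Both CE libraries lay above all the others, and the log2 fold change was 3.16 ± 0.21 (SE; limma adjusted p = 8.2e-11). H1-5 had a log2 fold change of 3.59 ± 0.12, H1-3 of 2.97 ± 0.21, H1-4 of 2.95 ± 0.37 and H1-6, known from testis, of 3.51 ± 0.39. H1-1 had 4.54 ± 1.19 (limma adjusted p = 0.0033), with 0 in both CBNE libraries.

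Core histone genes were also called higher. H2AC8, which encodes H2A, had 5277 and 5120 TPM in CE on day 0, against 601 and 663 in ME, 359 and 429 in SNE, 464 and 155 in CBNE and 449 and 242 in PE, a log2 fold change of 3.75 ± 1.01. H2AC12 and H2AC20 had 3.26 ± 0.30 and 3.38 ± 0.27. Among H2B genes, H2BC12 had 2.31 ± 0.16, H2BC17 had 3.06 ± 0.30 and H2BC10 had 3.70 ± 0.72. H3C7, H3C11 and H3C13, which encode H3, had 3.80 ± 0.28, 3.66 ± 0.93 and 3.15 ± 1.06. Among H4 genes, H4C6 had 5335 and 4827 TPM in CE and 0 in both CBNE libraries on day 0, with a log2 fold change of 5.78 ± 0.71. H4C4 and H4C3 had 4.74 ± 1.28 and 3.93 ± 0.69. All of these were called higher in CE.

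Few members were not called. On days 0 and 3 these included H2AC1, H2AC17 and H4C7. Each had at most 5.402 TPM in any CE, ME, SNE or INPUT library. H4C11 was not called on day 3, at 3.42 ± 1.59 (limma adjusted p = 0.0840). On day 5 H2AC1, H2AC17 and H1-1 were not called, and H1-1 had 7.48 and 11.2 TPM in CE with a log2 fold change of 1.72 ± 1.19 (limma adjusted p = 0.258). H2AC6 was called on day 0 at 1.36 ± 0.13.

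**Figure D3:**
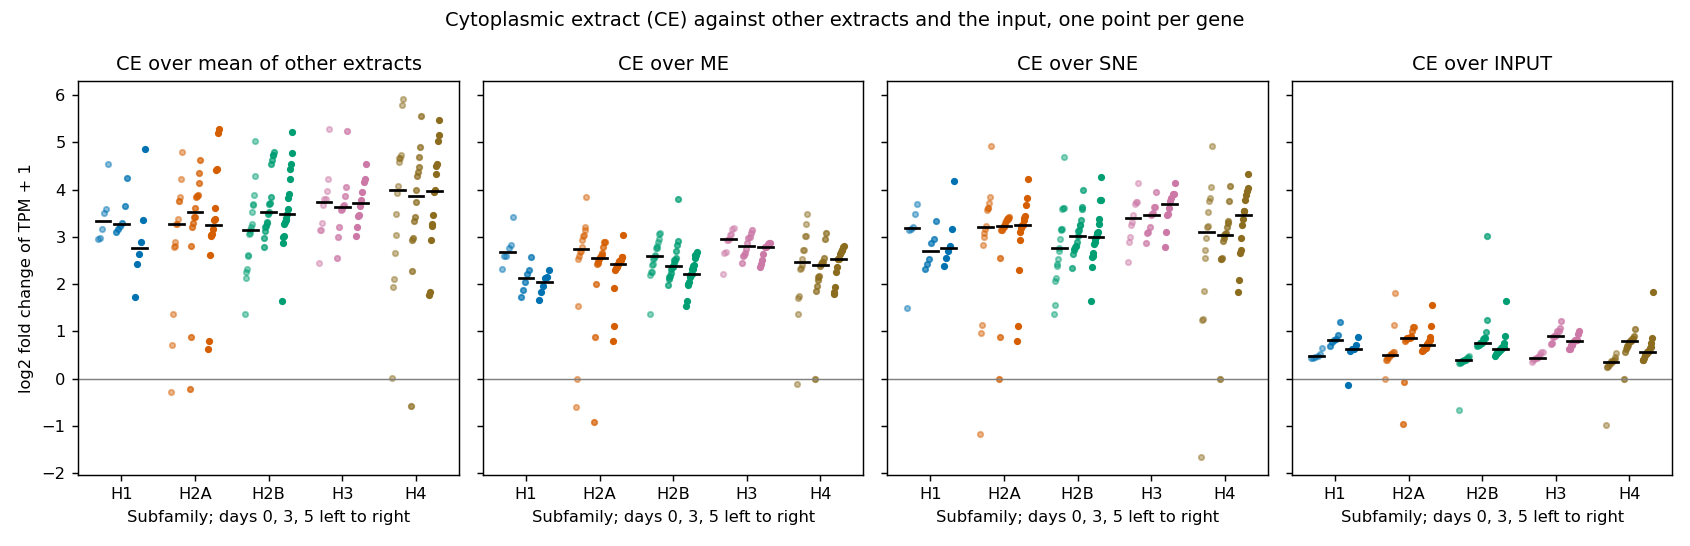
Log2 fold change of TPM + 1 for CE over the mean of the other extracts, ME, SNE and INPUT on days 0, 3 and 5, with 1 point per gene and a line at the median of the subfamily. Most members lie above 1 against ME and SNE and the medians over all members against INPUT are 0.42, 0.84 and 0.64.

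Set against the membrane extract alone, histone RNA was also higher in CE. On day 0, 36 of 61 members were called higher, where 15.2% of all genes were, on day 3 it was 31, where 6.82% were, and on day 5 it was 32, where 6.4% were. On days 0, 3 and 5, 0 were called lower, where 1.41%, 1% and 1.69% of all genes were (limma; 45, 42 and 42 members had an unadjusted p under 0.05). The median log2 fold change was 2.69, 2.47 and 2.40 on days 0, 3 and 5. Mitochondrial-encoded RNA moved with this contrast, at 1.53% ± 0.105, 1.84% ± 0.0238 and 1.4996% ± 0.143 of TPM in CE on days 0, 3 and 5, and at 60.5% ± 1.27, 51.2% ± 4.99 and 47.4% ± 1.04 in ME. Once mitochondrial-encoded genes were removed from the total, the histone share of CE was 12.85%, 14.79% and 13.55% on days 0, 3 and 5, and that of ME was 4.559%, 5.43% and 4.927%. With totals that leave out mitochondrial-encoded and small structured RNA, 20, 21 and 21 members were called higher in CE on these days. The median log2 fold change of the tested members was then 1.39, 1.45 and 1.55, and that of all genes was -0.53, -0.42 and -0.43. The share of all genes called with these totals is not given, so the counts have no background beside them. H1-2 had a log2 fold change of 2.82 ± 0.26 on day 0, H1-5 of 2.60 ± 0.15 and H2BC12 of 2.61 ± 0.20.

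For the abundant genes named here, standard errors were smaller without the libraries that have the most genes at 0. In a fit of CE, ME, SNE and INPUT libraries alone, added after the data were seen, 57, 58 and 58 of 61 members were called higher in CE than ME on days 0, 3 and 5. Of all genes 20.4%, 10.8% and 10.3% were called higher, and 2.13%, 1.72% and 2.82% lower, where 0 members were. In that fit H1-2 had 2.82 ± 0.10 on day 0 and 1.95 ± 0.10 on day 5, and H1-5 had 2.60 ± 0.08 and 1.82 ± 0.08. H4C6 had 3.01 ± 0.12 and 2.67 ± 0.12. The difference between the days was not tested.

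Against the soluble nuclear extract, 44 members on day 0, 44 on day 3 and 49 on day 5 were called higher in CE, where 8.66%, 6.64% and 8.17% of all genes were. On the same days 0 were called lower, where 30%, 30.5% and 35.9% of all genes were (limma; 47, 51 and 54 members had an unadjusted p under 0.05). Medians were 3.17, 3.13 and 3.25. In the fit without CBNE and PE libraries, 57, 58 and 58 members were called higher on days 0, 3 and 5, where 11.4%, 9.23% and 11.1% of all genes were. Called lower were 34.5%, 35.2% and 40.4% of all genes. H4C7 was the member called lower, on day 0 at -1.66 ± 0.54, from 0 and 2.54 TPM in CE against 4.49 and 5.402 TPM in SNE. H2AC6 had 142 and 143 TPM in CE on day 0 against 69.7 and 74.6 TPM in SNE. Its log2 fold change of 0.97 ± 0.07 in that fit missed the size threshold. H4C14 and H4C8 were near it on day 0, at 1.23 and 1.26 in the fit of all libraries.

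CE over SNE was set beside the annotated length after the stop codon. Over 18 genes with 500 or more annotated bases after the stop codon, log2 CE over SNE had a median of 2.62, 2.89 and 2.92 on days 0, 3 and 5. Over 39 genes with shorter annotation it was 3.53, 3.25 and 3.43. Both groups are limited to genes with a mean INPUT of 5 TPM or more. Both SNE libraries of day 3 lay below both of day 0 in 9 of the 18 and in 4 of the 39, where 49.4% of all genes did. They lay above both of day 0 in 6 of the 18 and in 23 of the 39, where 22.7% of all genes did. On day 5 both libraries lay below both of day 0 in 12 of the 18 and in 16 of the 39, where 37.3% of all genes did, and above in 4 of the 18 and in 12 of the 39, where 34.1% did. H4C8, of the longer class, had 111 and 102 TPM in SNE on day 0, 45.9 and 43.1 on day 3 and 33.4 and 35.03 on day 5. In CE the same gene had 256 and 256 TPM on day 0, 263 and 265 on day 3 and 226 and 237 on day 5. These are descriptions, with no test. The median day 0 INPUT level was 258 TPM in the longer class and 2208 TPM in the shorter, and TPM divides by the annotated length.

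Against INPUT the fold changes were smaller in size. CE held 1.35, 1.77 and 1.55 times the summed histone TPM of INPUT on days 0, 3 and 5. Members called higher numbered 0, 2 and 1, where 0.0566%, 0.275% and 0.263% of all genes were. In either direction 5, 21 and 13 members had an unadjusted p under 0.05 (limma). Among those of day 0, H2BC1 was lower in CE, at -0.67. On no day was a member called lower, where 0.639%, 11.6% and 6.04% of all genes were. The fit without CBNE and PE called 1, 10 and 4 higher, where 0.207%, 0.689% and 0.564% of all genes were, and 0 lower, where 1.22%, 14.6% and 7.99% were. The log2 fold change was above 0 in 58, 58 and 60 of the 61 members, and its median was 0.42, 0.84 and 0.64. Over the 24735 genes tested it was above 0 in 12685, 7943 and 9476, with medians of 0.01, -0.18 and -0.06. These calls depend on the scaling: quantile normalisation called 6, 10 and 7 members on days 0, 3 and 5, and scaling to a common median, which put the median of all genes at 0.11, 0.50 and 0.40, called 0, 26 and 17. The share of all genes called under these scalings is not given, so these counts have no background beside them. The 2 members called on day 3 in the fit of all libraries were H2BC1 and H3C10. H3C10 had 1.02 ± 0.32, and H2BC1 was listed at 0 in day 3 INPUT.

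Few histone genes passed the test over the days of differentiation. INPUT held 93153 ± 1584 TPM of histone RNA on day 0, 81025 ± 4033 on day 3 and 85362 ± 4887 on day 5 (SD, n = 2 each). Day 5 over day 0 the ratio of sums was 0.885 for H1, 1.01 for H2A, 0.923 for H2B, 0.831 for H3 and 0.894 for H4. In the test of day 5 over day 0, 2 of 61 members were called lower, where 6.67% of all genes were, and 0 were called higher, where 6.15% were (limma; 5 had an unadjusted p under 0.05). Day 3 over day 0 called 1 lower, where 3.38% of all genes were, and 0 higher, where 4.06% were. Day 5 over day 3 called 0 in either direction, where 2.49% of all genes were called higher and 2.32% lower, and 0 had an unadjusted p under 0.05. In this fit the standard error of a gene comes from all 36 total RNA libraries, CBNE and PE included. It is the same in each contrast of 2 groups and was 2.01 for H4C11. The low counts of calls are therefore no evidence that INPUT levels were unchanged. Counted by overlap, 37 of 64 had both day 5 libraries below both day 0 libraries, where 41.7% of all genes did, and 7 had both above, where 28.8% did. For day 3, 43 of 64 had both libraries below both of day 0, where 35.8% of all genes did, and 7 had both above, where 30.6% did.

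**Figure D4:**
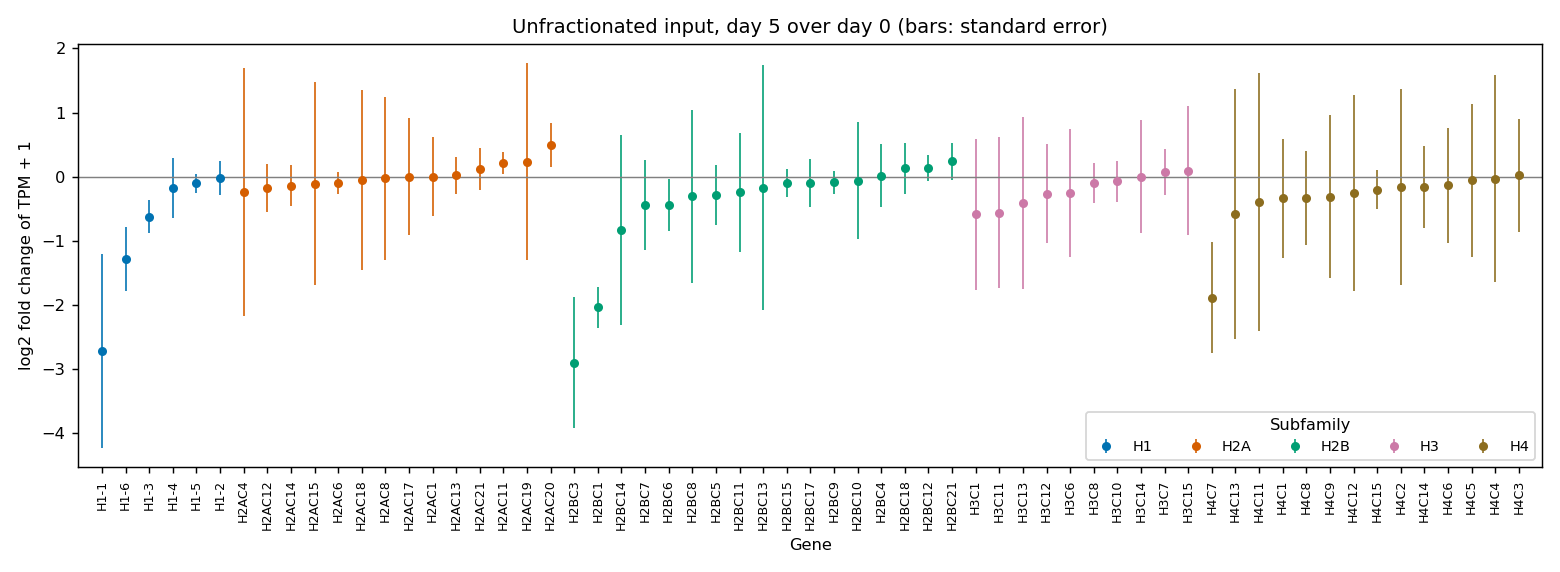
Log2 fold change of each member in INPUT, day 5 over day 0, by subfamily, with standard errors. H2BC3 and H1-1 lie lowest among the members with values in every INPUT library, at -2.90 and -2.72.

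Both members called lower were genes of low level. H2BC3, which encodes H2B, had 5.49 and 9.16 TPM in INPUT on day 5, against 59.2 and 60.2 TPM on day 0. Its log2 fold change was -2.90 ± 1.02 (limma adjusted p = 0.0431), and in the fit without CBNE and PE it was -2.90 ± 1.23 (limma adjusted p = 0.0645). In CE it had 14.8 and 13.4 TPM on day 5, against 73.8 and 83.1 TPM on day 0. H2BC1, a histone of testis, was the other call and is listed at 0 in INPUT on days 3 and 5, against 3.2 and 3.0 TPM on day 0. In CE it went the other way. Its log2 fold change there was 1.65 ± 0.32 for day 3 over day 0, called higher, and 0.28 ± 0.32 for day 5 over day 0, not called.

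Linker histone genes differed among themselves. H1-1 had 77.4 and 68.5 TPM in INPUT on day 0, 42.5 and 21.2 on day 3 and 9.68 and 10.8 on day 5. In CE it had 123 and 106 TPM on day 0, 49.5 and 58.9 on day 3 and 7.48 and 11.2 on day 5. Both fractions were lowest on day 5 with no overlap between days 5 and 0. Of all genes, 41.7% in INPUT and 52.4% in CE had both day 5 libraries below both of day 0. The INPUT log2 fold change, day 5 over day 0, was -2.72 ± 1.51 (limma adjusted p = 0.235), and -2.72 ± 0.71 in the fit without CBNE and PE (limma adjusted p = 0.0053). H1-6 had 5.82 and 12.97 TPM in INPUT on day 5, against 23.3 and 22.4 TPM on day 0, at -1.29 ± 0.35 in that fit (limma adjusted p = 0.0062). With H2BC1 and H4C7, these made 4 members called lower there, where 9.32% of all genes were, and 0 were called higher, where 7.63% were.

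None of the 4 abundant linker histones were called. H1-2 had 5926 and 5621 TPM in INPUT on day 5, against 5927 and 5780 TPM on day 0, with a log2 fold change of -0.02 ± 0.26. H1-3 had 2234 and 2055 TPM on day 5, against 3392 and 3204 TPM on day 0, at -0.62 ± 0.26 (limma adjusted p = 0.102). H1-4 and H1-5 had -0.17 ± 0.47 and -0.10 ± 0.15. Within H1, H1-3 held 17.9%, 12.001% and 13.1% of INPUT TPM on days 0, 3 and 5. The share of H1-1 was 0.395%, 0.213% and 0.0629% on the same days, and that of H1-2 was 31.8%, 30.0% and 35.4%. Among core histones, H2AC20 had 3502 and 3252 TPM on day 5, against 2357 and 2419 TPM on day 0, at 0.50 ± 0.35, and 0.50 ± 0.12 in the fit without CBNE and PE (limma adjusted p = 0.0026), below the size threshold.

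In the cytoplasmic extract, more members lay above than below day 0 on days 3 and 5, and more lay below than above day 3 on day 5. Both CE libraries of day 3 lay above both of day 0 in 39 of 64 members, where 14.8% of all genes did, and 5 lay below, where 56.4% did. For day 5 over day 0, 29 lay above, where 21.2% did, and 15 below, where 52.4% did. For day 5 over day 3, 2 lay above, where 33.8% did, and 35 below, where 21.4% did. The fit called 1 member higher on day 3, H2BC1, where 2.17% of all genes were, and 0 lower, where 9.66% were. On day 5 it called 0 higher and 0 lower, where 4.41% and 9.98% of all genes were, and 3 members had an unadjusted p under 0.05 (limma). The fit without CBNE and PE called H1-1 lower on day 5, at -3.50 ± 0.71 (limma adjusted p = 0.00073), where 13.5% of all genes were.

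The size of the difference between CE and the mean of the other extracts also differed between days for a few members. Day 3 minus day 0, 3 members had a larger difference, where 0.441% of all genes did, and 0 a smaller one, where 9.52% did. Day 5 minus day 0, 6 had a larger one, where 1.23% did, and 0 a smaller one, where 8.65% did. H2AC6 was among them on both days. With the mean of ME and SNE in place of the 4 extracts, 1 member was called on day 3, H2AC6, and 0 on day 5. The sign then turned for H2BC21 on day 3, at -0.0477, and on day 5 for H1-3, H2AC12 and H2AC20, at -0.46, -0.11 and -0.51. H1-3, H2AC12, H2AC20, H2BC9 and H4C15 were listed at 0 in both day 5 CBNE libraries. H2AC6 had 166.8 and 159 TPM in CE on day 3, against 141.8 and 143 TPM on day 0, and 26.0 and 28.1 TPM in SNE on day 3, against 69.7 and 74.6 TPM on day 0.

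Genes that act on histones, and markers of other kinds, were read from lists in INPUT, day 5 over day 0. Of all genes, 6.15% were called higher and 6.67% lower in this comparison, so 1 call in a short list is no result about that list. Among 12 replication-independent histones, MACROH2A2, a macroH2A variant, was called higher at 1.57 ± 0.17, with 18.8 ± 0.539 TPM on day 5 and 5.66 ± 0.236 TPM on day 0. Among 8 genes of histone gene transcription, CDK2, the kinase of S phase entry, was called higher at 1.26 ± 0.30, with 218 ± 1.56 TPM on day 5 and 90.1 ± 1.71 TPM on day 0. Of 10 tested genes of 3′ end processing, 0 were called, and SLBP had 51.0 ± 2.39 TPM on day 5 and 27.5 ± 0.858 TPM on day 0, at 0.87 ± 0.17. Of 9 tested genes of histone mRNA translation and decay, 0 were called. Among 14 tested chaperones, CHAF1A, a subunit of chromatin assembly factor, was called lower at -1.01 ± 0.11, with 31.6 ± 2.49 TPM on day 5 and 64.5 ± 0.597 TPM on day 0. Of 23 S phase genes, 0 were called and the median was -0.39, beside -0.08 over all genes. The 3 tested cluster genes outside the name rule had 0 calls. Of the 7 tested pluripotency markers 5 were called lower, of 8 mesoderm markers 6 were called higher and 1 lower, and of 2 tested endoderm markers 2 were called higher. Neuroectoderm and mitochondrial genes had 0 calls of 2 each, and 2 of 2 nuclear RNAs, NEAT1 and MALAT1, were called higher.

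Histone RNA made up little of the polyA libraries. The 64 genes summed to 93153 TPM in day 0 INPUT of total RNA, against 373 ± 2.16 TPM in polyA nucleus and 354 ± 31.1 TPM in polyA cytoplasm (SD, n = 2 each). The tables were made separately, so levels across them are set side by side without a test. Replication-independent histones summed to 4174 TPM in day 0 INPUT, and to 2201 TPM in polyA nucleus and 3210 TPM in polyA cytoplasm. For the 38 members at 1 TPM or more in polyA cytoplasm, INPUT over polyA cytoplasm had a median of 232, from 2.68 for H2AC6 to 3096 for H1-3. For 11 replication-independent histones the median was 0.950, from 0.108 to 4.46.

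**Figure D5:**
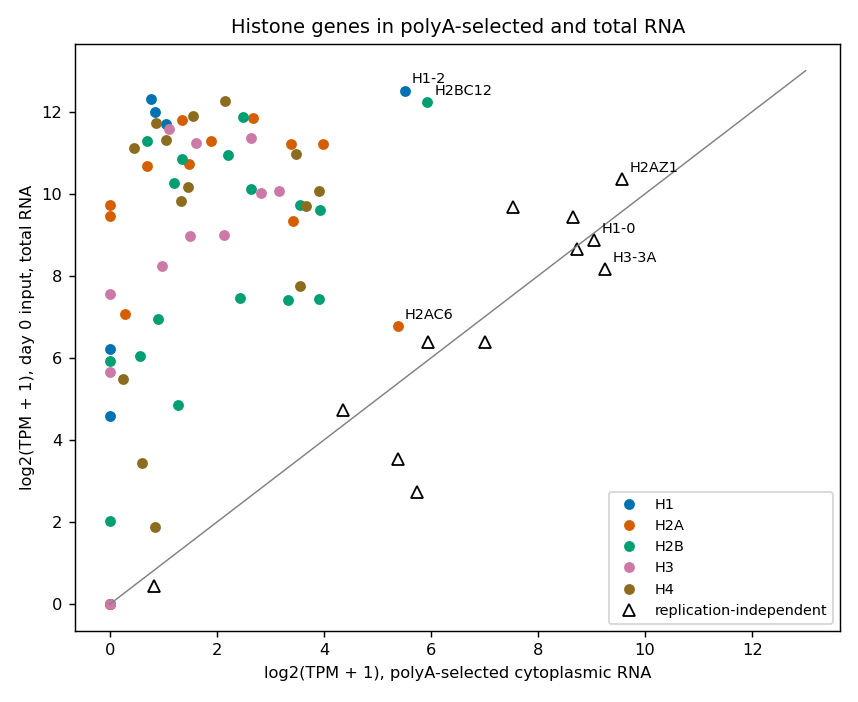
Level in day 0 INPUT (total RNA) against level in polyA cytoplasm for each member (dots) and each replication-independent histone (triangles), both as log2(TPM + 1), with a line where the 2 are equal. Nearly all members lie above the line, with H2AC6, at a ratio of 2.68, nearest to the replication-independent histones.

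The polyA histone RNA was spread unevenly over the genes. H2BC12, H1-2 and H2AC6 made up 41.0% of the members' sum in polyA cytoplasm, and 13 members were listed at 0 in all 4 libraries. Of the 44 members tested, 8 were called higher in nucleus, where 30% of all genes were, and 4 lower, where 6.22% were. The median log2 fold change of nucleus over cytoplasm was 0.44 over the members and 0.50 over all genes. H2BC12 had 30.9 and 25.2 TPM in nucleus, against 69.2 and 50.9 TPM in cytoplasm, at -1.06 ± 0.17 (limma adjusted p = 0.0031). H1-2 had 21.7 and 17.6 TPM in nucleus, against 47.5 and 41.4 TPM in cytoplasm, at -1.14 ± 0.12 (limma adjusted p = 3.3e-04). H2AC6 had 15.0 and 12.1 TPM in nucleus, against 44.5 and 36.7 TPM in cytoplasm, at -1.52 ± 0.13. The groups did not overlap for these genes, and the share of all genes without overlap is not given. H4C2 was the other member called lower, at -1.06 ± 0.20, from 0 and 0 TPM in nucleus against 1.10 and 1.06 TPM in cytoplasm. It passed the filter only through the cytoplasm libraries, so the filter set its direction and the call is no support. Those called higher in nucleus were H2BC7, H2BC8, H2BC18, H3C1, H3C6, H4C3, H4C5 and H4C12, from 1.01 ± 0.34 for H4C3 to 1.76 ± 0.19 for H3C6. Whether any of these 8 passed the filter only through the nucleus libraries is not given here. For such a gene the call would likewise be no support.

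Several members are uncertain because of near-identical copies or overlap. Of the 64 genes, 14 share 80% or more of their 31-base words with other genes. Summed over the copies H2AC18 and H2AC19, INPUT held 840 ± 31.9, 848 ± 24.4 and 837 ± 69.4 TPM on days 0, 3 and 5. Summed over H4C11 and H4C12 it was 2827 ± 94.1, 2249 ± 124 and 2301 ± 144 on the same days. The copies H3C14 and H3C15, and H4C14 and H4C15, are uncertain in the same way. H2AC7, H2AC16 and H3C4 were listed at 0 in all total RNA libraries, and 98.0% of H2AC7 and 100% of H3C4 lie within AL031777.3 on the same strand. H2AC16 is different, with 1.02% of its exons overlapped and 23.1% of its words shared. Divergent neighbours within 500 bases made 11 pairs, 10 of them H2A with H2B. H2AC12 and H2BC12 start 331 bases apart, with 3577 and 4792 TPM in day 0 INPUT.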

How the data were processed

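The deposited values are TPM in 1 table of total RNA and 1 of polyA RNA. The unit was read from the column sums. The tools named per the submitters' processing notes include Salmon 1.3.0, featureCounts 1.6.2, GATK and HISAT2 2.0.5, and the build is hg38. Their roles are not given in the sources used here. TPM keeps no depth, so no counting interval can be given.

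Groups came from the labels. Genes that reached 1 TPM in 2 libraries or more (24735 in total RNA, 16667 in polyA RNA) were fitted as log2(TPM + 1) with limma 3.58.1 in R 4.3.3, with 1 mean per group and a trended, robust prior, the 2 tables separately. Benjamini-Hochberg adjustment ran over all genes of a fit, and scripts were tested on simulated data. Fold changes on this scale understate the change of low genes. Other pseudocounts, filters, scalings, a replicate block and leaving out each library were tried, and a fit of CE, ME, SNE and INPUT libraries only was added after seeing the data.

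The members and 13 gene lists were chosen with earlier results of these data known. Genes named are every H1, the 3 most abundant of each other subfamily, those that a call singles out, and the most abundant or called genes of each list. Genes shown for annotation, SNE levels or sequence were chosen after their values were seen. Stem-loops came from GENCODE 29 and promoters from RefSeq.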

Additional observations from a re-analysis of the deposited data

Results flagged for a closer look

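The log2 difference between CE and the mean of ME, SNE, CBNE and PE was tested for a change between days, and 9 values passed. On day 3 minus day 0, 3 of 61 members had a larger difference, where 0.441% of all genes did. H2AC6 gave 1.447, H2BC1 gave 1.422 and H2BC21 gave 1.007. On day 5 minus day 0, 6 members had a larger difference, where 1.23% of all genes did. H2AC12 gave 1.923, H2AC20 gave 1.9, H1-3 gave 1.892, H2BC9 gave 1.456, H4C15 gave 1.356 and H2AC6 gave 1.244. H1-3, H2AC12, H2AC20, H2BC9 and H4C15 were listed at 0 in both day 5 CBNE libraries, whose part in these values was not tested on its own. With the mean of ME and SNE in place of the 4 extracts, 1 member was called on day 3 and 0 on day 5.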

How the results depend on the processing

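The members called higher in CE over the mean of the other extracts numbered 46 to 58 on day 0, 45 to 57 on day 3 and 48 to 58 on day 5 when 1 library was left out, with 0 to 1 called lower on day 3. Without 1 library, CE over INPUT on day 3 called 1, INPUT day 5 over day 0 called 1 to 2 lower, and polyA nucleus over cytoplasm called 2 to 6 lower. The change of CE over the other extracts called 2 to 6 higher and 0 to 1 lower on day 3, and 6 to 10 higher and 0 to 2 lower on day 5. The highest of these came without the first day 3 CBNE library (6) and without the second day 5 CBNE library (10). INPUT day 5 over day 0 called 1 lower without the first day 5 or either day 0 INPUT library, and polyA called 2 lower without the first cytoplasm library. At a pseudocount of 0.1, CE over ME called 23 on day 0 and 21 on day 5, and CE day 3 over day 0 called 0. At a pseudocount of 5, CE over INPUT on day 5 called 0, the change on day 3 called 1 higher and on day 5 called 2 lower, INPUT day 5 over day 0 called 1 lower, CE day 3 over day 0 called 0 higher, CE day 5 over day 0 called 2 lower, and polyA called 3 higher and 2 lower. INPUT day 5 over day 0 called 1 lower with no filter, with the common median and with totals without mitochondrial-encoded and small structured RNA. With quantile normalisation, CE over ME called 20 on day 0, CE over INPUT called 6, 10 and 7 on days 0, 3 and 5, the change called 5 higher on day 3 and 1 lower on day 5, INPUT day 3 over day 0 called 2 lower, CE day 3 over day 0 called 1 lower, CE day 5 over day 0 called 1 higher and 1 lower, and polyA called 2 higher and 10 lower. With the common median, CE over INPUT called 26 on day 3 and 17 on day 5, the change called 14 on day 3 and 12 on day 5, CE called 7 higher on day 3 and 1 on day 5 over day 0, and polyA called 4 higher and 8 lower. Totals without mitochondrial-encoded and small structured RNA gave 20 on day 0 and 21 on day 5 for CE over ME and 1 for CE over INPUT on day 3. A filter of 5 TPM gave 5 higher in polyA nucleus. Shares of all genes called under the settings of this paragraph are not given, so these counts have no background beside them.

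With CE, ME, SNE and INPUT libraries only, CE over ME called 57, 58 and 58 on days 0, 3 and 5, CE over SNE called 1 lower on day 0, CE over INPUT called 1, 10 and 4, INPUT called 2 lower on day 3 and 4 lower on day 5 over day 0, and CE called 1 lower on day 5 over day 0. With the mean of ME and SNE, the change called 1 on day 3 and 0 on day 5, and its sign turned for H2BC21 on day 3 (-0.0477) and for H1-3 (-0.46), H2AC12 (-0.11) and H2AC20 (-0.51) on day 5. Without mitochondrial-encoded genes, the histone share was 4.559%, 5.43% and 4.927% in ME and 11.79%, 10.44% and 10.88% in INPUT on days 0, 3 and 5. No pairing of libraries by replicate number was seen, since 0 of the pairs of groups had a correlation above 0.1 (highest 0.0706). A low correlation cannot exclude that libraries with the same replicate number came from the same culture, so pairing remains undetermined. With the replicate block INPUT day 5 over day 0 called 1 lower. The cause of these differences was not tested. CBNE values are the least certain, with 20 to 35 members listed at 0 in a library, and their depth is unknown.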
